A study of Mus musculus with 12 samples.

Results

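Fibronectin (Fn1), the integrin subunits α5 (Itga5), β1 (Itgb1) and αv (Itgav) and tenascin-C (Tnc) were followed across the cell classes of 6 mouse mammary tumours. The 5 genes were chosen by their CPM over cell classes and tumours in earlier results on these same libraries, so their levels are a description and carry no test. They are 5 of the 19369 genes in the tables of the Total libraries and 5 of the 18574 in those of the CD45 libraries. The cell classes are the authors' own, deposited per cell.

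Fibronectin is a large matrix glycoprotein that cells secrete as a dimer and assemble into fibrils. Cells hold it mainly through the integrin α5β1, and through αv integrins, which recognise an arginine-glycine-aspartate motif in one of its type III repeats. Tenascin-C is a matrix protein of wound and tumour stroma that binds fibronectin and alters how cells adhere to it. Fn1 is widely used as a marker of mesenchymal tumour cells, and macrophages and fibroblasts are also known to make it.

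The tumours came from the 4T1 line, a triple-negative mammary carcinoma of BALB/c mice. The 5 clones grown from single cells, named M, E and EM1 to EM3, as well as the parental 4T1 line, were implanted orthotopically in female BALB/c hosts aged 9 to 11 weeks, and the labels give the mammary fat pad as the tissue. The design text describes the clones as epithelial, intermediate or mesenchymal, without saying which clone holds which state. Each group is 1 clone, or the parental line, in 1 tumour. Every tumour gave a Total library and a library of cells isolated with CD45 beads, CD45 being the surface antigen of leukocytes.

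The Total libraries held 38499899 to 122055131 unique molecular identifiers (UMIs, the tags by which captured molecules are counted) in 6709 to 13467 cells. The CD45 libraries held 28083101 to 57116299 UMIs in 6791 to 11024 cells. Levels are UMIs of a gene summed over a class and scaled to a total of 1000000 UMIs in that class (CPM), and the intervals are 95% Poisson intervals, which cover counting error only. With 1 tumour in each group there is no replicate check and no p-value, and a clone, its mouse and its preparation cannot be told apart. The libraries of E and EM3, those of EM1 and EM2, and the pair from each tumour shared the first 16 bases of their cell barcodes at 12.2% to 19.1% of the smaller library's cells, with no whole barcode in common. The other pairs of libraries had up to 189 whole barcodes in common. Class labels were checked on marker genes: keratin and epithelial genes summed to 2121 to 11108 CPM in tumour cells, collagen and other fibroblast genes to 71408 to 158027 CPM in fibroblasts, and macrophage genes to 8739 to 16165 CPM in macrophages of the Total libraries. The tumour-cell sum of EM3 was mostly Krt8 (1510 CPM) and Krt18 (593.9 CPM), with Krt7, Epcam and Cldn4 at 4.77 to 12.9 CPM. Pdgfra, of the fibroblast list, ran from 35.8 CPM in E to 195.1 CPM in M in tumour cells. In fibroblasts it was 186.9 to 310.5 CPM, so those ranges overlapped. The fibroblast class also held pericyte genes at 334.5 to 1069 CPM, against up to 1.59 CPM in tumour cells and 6.02 CPM in macrophages. The part of pericytes in the fibroblast values below was not tested.

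The arginine-glycine-aspartate motif can be read in the Fn1 coding sequence (GENCODE M21, mm10, minus strand of chromosome 1, gene span 71585520 to 71653200). The longest of 7 consensus coding transcripts has 2477 codons in 46 exons and holds the arginine, glycine and aspartate codons in frame at 2 places, and all 7 transcripts hold the motif. The stretches are shown with those codons in capitals because the motif is recognised by integrins measured below. The first, at codon 1614 in exon 30, is the classical cell-binding site. The second is at codon 2181 in exon 40, and integrin binding there was not tested.
Fn1 codon 1614, chr1:71606722-71606778: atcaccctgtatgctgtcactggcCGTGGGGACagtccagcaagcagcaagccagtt
Fn1 codon 2181, chr1:71597419-71597475: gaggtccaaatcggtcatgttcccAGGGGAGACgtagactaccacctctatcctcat

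Such codons were found in 7.42% of 20335 mouse genes with a consensus coding sequence. The 2 consensus coding transcripts of Tnc (chromosome 4, 63959785 to 64047015, minus strand) held none. The genes of the receptor subunits held none either: Itga5 lies on chromosome 15 (103344286 to 103366763, minus strand), Itgb1 on chromosome 8 (128685654 to 128733200, plus strand) and Itgav on chromosome 2 (83724397 to 83806916, plus strand). The counts per gene do not tell transcripts apart, so inclusion of the exons could not be followed.

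Fn1 was high in tumour cells, fibroblasts and macrophages, and lowest of the tumour-cell sums in Clone M. Tumour cells of EM2 had 15167 CPM, those of E 14139 (14036 to 14244), those of EM3 12681, those of EM1 12657, those of the parental tumour 10209 and those of M 5016 (4998 to 5033). The sum in M thus stood apart below the other 5, and the interval of EM1 (12615 to 12700) overlapped that of EM3 (12640 to 12722). Highest over lowest was 3.02-fold on the log2(CPM + 10) scale used for all ratios here, and 91.5% of genes had a smaller spread in tumour cells. M over E was −1.49 on the log2 scale (−1.51 to −1.48), where the median of all genes was 0.11, and was −0.93 with size factors over all detected genes. EM3 over E was −0.16 (−0.17 to −0.15), a difference whose sign depended on the scaling of the libraries and was 0.39 under those size factors. The 5016 CPM of M still came to 69.8 Fn1 UMIs per tumour cell, against 231.3 in EM2, 188.7 in EM3, 148.7 in the parental tumour, 119.5 in EM1 and 95.3 in E.

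**Figure D1:**
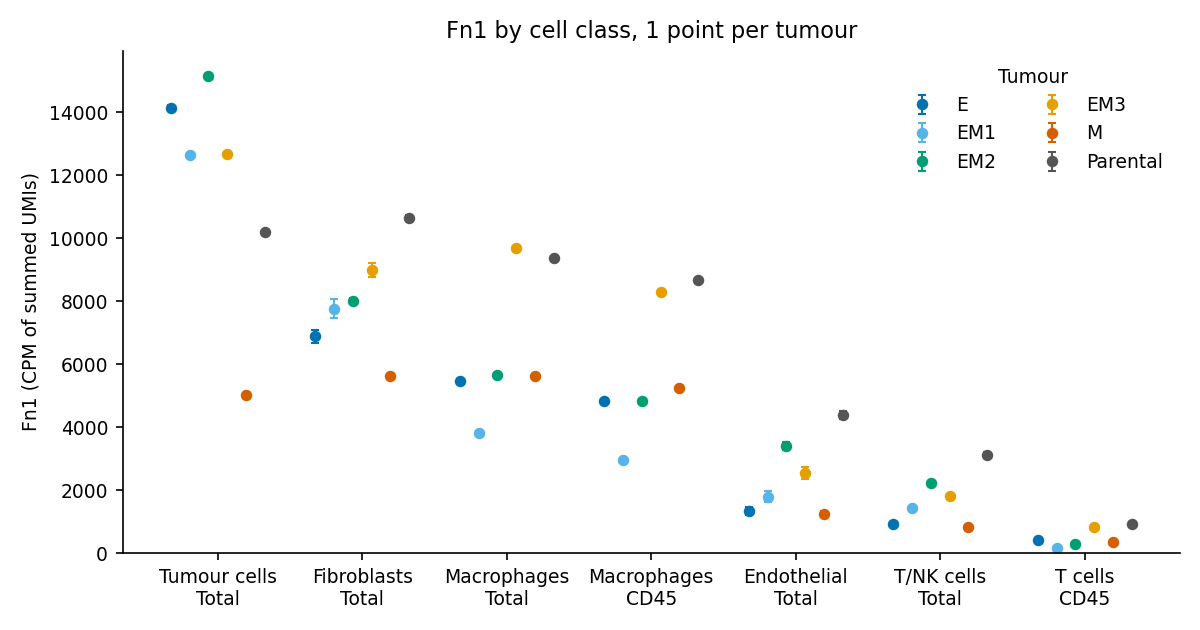
Fn1 in CPM of summed UMIs (vertical axis) for 7 sums of cells (horizontal axis), with 1 point for each tumour and bars for 95% Poisson intervals, which are often smaller than the point. Tumour cells of M, at 5016 CPM, lie below the other 5 tumours, while macrophages of EM3 and of the parental tumour lie above the other 4 in both kinds of library.

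The lower sum of M was also seen in its median cell. After each cell was thinned to 1000 UMIs, so that depth did not set the count, the median tumour cell held 4 Fn1 UMIs in M, 8 in the parental tumour, 10 in E, EM1 and EM3 and 12 in EM2. T and NK cells, thinned in the same way, held a median of 1 to 3. Cells under 1000 UMIs were left out, 3 to 23 tumour cells and 45 to 571 T and NK cells in a library. At least 1 thinned Fn1 UMI was found in 93.8% (M) to 98.6% (EM2) of tumour cells, but also in 52.8% (M) to 93.0% (parental) of T and NK cells, at median depths of 6542 to 15301 and 1098.5 to 2087.5 UMIs before thinning. The share of positive cells is therefore a poor measure of Fn1 in the Total libraries. The 10% of tumour cells with the most thinned Fn1 UMIs held 27.8% to 30.5% of them in all 6 tumours.

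Macrophages held Fn1 in all 6 tumours, with an order of tumours unlike that of the tumour cells. In the Total libraries their sums were 9688 CPM in EM3, 9377 in the parental tumour, 5670 in EM2, 5632 in M, 5461 in E and 3812 in EM1. In the CD45 libraries, a separate preparation of the same tumours, they were 8677 CPM in the parental tumour, 8302 in EM3, 5246 in M, 4831 in EM2, 4821 in E and 2944 in EM1. EM3 and the parental tumour were the highest and EM1 the lowest in both. The CD45 sum was the lower one in each of the 6 tumours. EM3 was above E in both kinds of library.

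The spread over tumours was 2.54-fold in the Total and 2.94-fold in the CD45 macrophages, and 94.4% and 96.4% of genes spread less. M over E was near 0 in macrophages, at 0.04 in the Total and 0.12 in the CD45 libraries on the log2 scale. Its sign turned with the scaling in both, to −0.14 in the Total and −0.0699 in the CD45 libraries with size factors over genes of at least 50 CPM, so no direction is given. The median Total macrophage held 2 thinned Fn1 UMIs in EM1, 4 in E, EM2 and M, 7 in the parental tumour and 8 in EM3. In the CD45 libraries, where T cells had an Fn1 UMI in 12.3% to 54.2% of thinned cells, the share of positive macrophages was 89.4% in EM3, 89.2% in the parental tumour, 79.5% in E, 79.3% in M, 71.5% in EM2 and 60.6% in EM1. The median depths before thinning were 5138 to 7664 UMIs in these macrophages and 979 to 1722 in the T cells. T, NK and B cells of the CD45 libraries together also had most Fn1 in the parental tumour (929.9 CPM) and EM3 (841.6 CPM). They had least in EM1 (160.2 CPM). The part of this background in the shares of positive macrophages was not tested. The 10% of CD45 macrophages with the most thinned Fn1 UMIs held 44.5% of them in EM1 and 29.9% in the parental tumour.

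Fibroblasts were few, 52 to 258 cells in a library, and held Fn1 at 10650 CPM in the parental tumour, 9000 in EM3, 8005 in EM2, 7765 in EM1, 6881 in E and 5615 (5534 to 5696) in M. M was the lowest here too, with E the next, and the spread was 1.90-fold. The fibroblast class of the parental tumour, highest in Fn1, also held the highest sum of tumour-cell markers, 1062 CPM against 138.7 to 713.0 CPM in the other 5 and 4098 CPM in its own tumour cells. The part of tumour-cell RNA in that value was not tested. The median fibroblast held 4 thinned Fn1 UMIs in E and M and 8 in the parental tumour. Within a tumour, fibroblasts over tumour cells had a median log2 ratio of −0.60, from −1.04 in E to 0.16 in M. Macrophages over tumour cells had a median of −0.88, from −1.73 in EM1 to 0.17 in M. M was therefore the 1 tumour whose tumour cells held less Fn1 in CPM than both its macrophages and its fibroblasts. Per cell, the tumour cells of M held more Fn1 UMIs (69.8) than its macrophages (54.1) and fewer than its fibroblasts (71.97). With size factors over genes of at least 50 CPM, the medians became 0.12 for fibroblasts and −0.35 for macrophages over tumour cells. Whether M stays the only such tumour under that scaling was not tested.

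By the median over tumours, the order of Fn1 in the Total libraries was tumour cells (12669 CPM), fibroblasts (7885), macrophages (5651), granulocytes (2323), endothelial cells (2164), T and NK cells (1637), B cells (1516) and dendritic cells (857.6). The ranges of the first 3 overlapped, that of macrophages lay wholly above that of granulocytes, and all later neighbours overlapped. Tumour cells were first in 4 of 6 tumours. Fibroblasts were first in the parental tumour, with the tumour-cell markers given above. In M the interval of macrophages (5604 to 5661 CPM) lay inside that of fibroblasts, so neither was first. The class that the authors named Unknown, 13 to 100 cells in 5 tumours, was left out of this order. It held 5144 CPM of Fn1 in M and 10180 to 11644 CPM in the other 4, or 92.1 to 207.4 UMIs per cell.

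Lymphocytes, which are not a main source of fibronectin, gave a background level for each library. T, NK and B cells together had 832 to 3059 CPM of Fn1 in the Total libraries, or 1.68 to 4.75 UMIs per cell. Granulocytes had 1.37 to 5.01 UMIs per cell, 0.82 to 1.08 times the lymphocytes of their own library, and dendritic cells 0.89 to 1.89 times. In CPM granulocytes stood at 1.11 to 1.80 times the lymphocytes, so whether they expressed Fn1 was not settled. Dendritic cells of the CD45 libraries held 3.28 to 19.8 Fn1 UMIs per cell, 3.06 to 37.3 times the lymphocytes there. That class also held macrophage marker genes at 1610 to 7525 CPM, beside 2196 to 4505 CPM of dendritic markers, where CD45 macrophages held 9968 to 16953 CPM of macrophage markers. The part of macrophage RNA in the Fn1 of dendritic cells was not tested. Granulocytes held 992 to 1748 UMIs per cell in all, so that the same few UMIs came to 919 to 3540 CPM. Tumour cells held 31.3 to 71.9 times the lymphocyte number of Fn1 UMIs per cell, fibroblasts 15.8 to 42.8 times and macrophages 10.2 to 32.2 times. In the CD45 libraries macrophages held 38.7 to 80.2 times the lymphocyte number. Endothelial cells of the Total libraries held 2.56 to 10.8 times the lymphocyte number. Their highest value, 10.8 in the parental tumour, passed the lowest of the Total macrophages, 10.2 in EM1, so these ranges overlapped. Within each Total library, endothelial cells lay per cell below tumour cells, fibroblasts and macrophages and above granulocytes and dendritic cells. In CPM, endothelial cells stood at 1.28 to 1.498 times the lymphocytes, inside the granulocyte range. Granulocytes had the higher CPM of these classes in E, EM1 and EM3 and the lower in the other tumours. Whether endothelial cells expressed Fn1 was thus not settled either. Tumour cells stood at 3.34 to 15.3 times the lymphocyte CPM, fibroblasts at 3.46 to 7.44 times and Total macrophages at 2.45 to 6.77 times.

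The tumours differed in which cells held the Fn1 RNA of the Total library. Tumour cells held 90.8% of the Fn1 UMIs in EM1, 83.2% in EM2, 77.1% in the parental tumour, 62.5% in M, 47.9% in EM3 and 35.1% in E. Macrophages held 55.6% in E, 48.8% in EM3, 30.4% in M, 16.6% in the parental tumour, 12.5% in EM2 and 6.64% in EM1. Macrophages thus held more of the Fn1 UMIs than tumour cells in E and about as many in EM3. Fibroblasts held 0.71% to 3.74%. These shares follow the cells recovered by digestion, so that E, with 747 tumour cells and 3791 macrophages, is weighted toward macrophages.

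**Figure D2:**
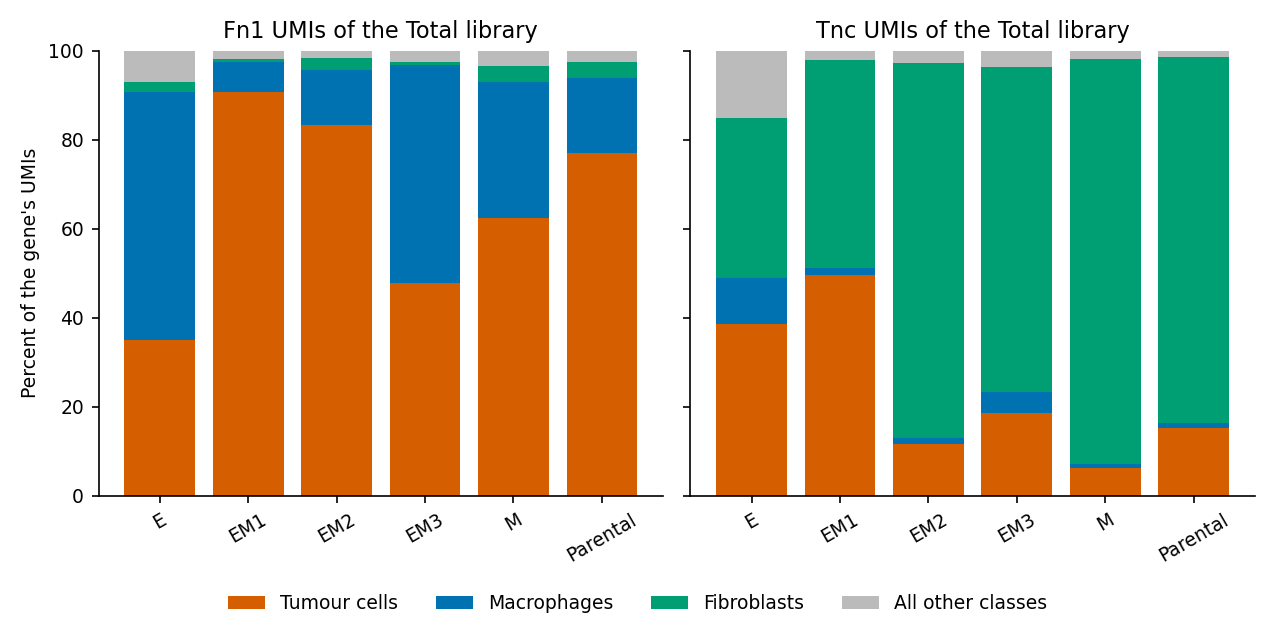
Percent of all Fn1 UMIs (left) and Tnc UMIs (right) of each tumour's Total library that lay in tumour cells, macrophages, fibroblasts and all other classes (stacked bars from 0 to 100%). Macrophages hold 55.6% of the Fn1 UMIs in E and 6.64% in EM1, whereas fibroblasts hold from 35.9% of the Tnc UMIs in E to 91.0% in M.

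Of the receptor subunits, Itga5, the chain that pairs with β1 alone and makes the main fibronectin receptor, was highest in fibroblasts in all 6 tumours. Fibroblasts held 730.6 to 962.1 CPM (median 779.0), above endothelial cells at 501.4 to 627.3 CPM, and neither range touched its neighbour's. Within EM3 the intervals of both classes overlapped, with 159 Itga5 UMIs in endothelial cells. Macrophages followed at 156.0 to 275.6 CPM in the Total and 157.4 to 249.2 CPM in the CD45 libraries, where T cells had 13.2 to 34.9 CPM. Macrophage and tumour-cell ranges overlapped.

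In tumour cells Itga5 was 220.4 CPM in EM2, 218.5 (205.8 to 231.8) in E, 218.4 in the parental tumour, 194.6 in EM1, 160.3 in EM3 and 68.1 (66.0 to 70.1) in M. M was the only tumour under 100 CPM, and E, EM2 and the parental tumour had overlapping intervals. M over E was −1.55 on the log2 scale (−1.64 to −1.46) and between −2.22 and −1.03 under the alternatives tried. In M, 6.35% of thinned tumour cells had an Itga5 UMI, against 14.6% to 19.0% in the other 5 tumours, beside 3.45% to 8.33% of T and NK cells. Macrophages of the same pair of tumours differed by −0.29 in the Total and −0.08 in the CD45 libraries. Fibroblasts over tumour cells had a median log2 ratio of 2.12 for Itga5, lowest at 1.72 in EM2 and highest at 3.25 in M.

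Itgb1, the common partner of many α chains, had its highest sum in endothelial cells in 4 tumours and in tumour cells in E and EM3. In EM1, EM2 and EM3 the intervals of endothelial and tumour cells overlapped, so neither was first. Endothelial sums there rested on 241, 1120 and 263 Itgb1 UMIs. The ranges of endothelial cells (832.6 to 1171 CPM), tumour cells (689.4 to 1401 CPM) and fibroblasts (706.9 to 977.4 CPM) overlapped, and all 3 lay above dendritic cells (412.2 to 575.5 CPM). Tumour cells had 1401 CPM (1369 to 1434) in E, 1172 in EM3, 1062 in EM2, 1021 in the parental tumour, 1008 in EM1 and 689.4 (683.0 to 696.0) in M. E was the highest and M the lowest, with M over E at −1.01 (−1.05 to −0.98). The size of this difference moved with the scaling, from −0.46 with size factors over all detected genes to −1.61 after the lymphocyte level was subtracted. Lymphocytes express Itgb1 themselves, so that subtraction removes more than free RNA. Macrophages were nearly level over tumours, at 339.5 to 419.7 CPM in the Total and 291.8 to 358.8 CPM in the CD45 libraries.

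Itgav pairs with β1, β3, β5, β6 or β8 and binds vitronectin as well as fibronectin, and it was the subunit whose tumour-cell level went the other way. It was 259.6 CPM (255.7 to 263.6) in M, 223.2 in EM3, 196.5 in the parental tumour, 192.8 in EM1, 168.1 in EM2 and 167.6 (156.5 to 179.3) in E. M was highest and E lowest, with EM2 and E overlapping, and the spread of 1.52-fold was smaller than that of most genes, since 37.5% of genes spread less. M over E was 0.60 (0.51 to 0.70) and was 0.49 to 1.14 under the other scalings, with no value once lymphocyte CPM were subtracted because lymphocytes held more Itgav than tumour cells in both tumours. Macrophages had the opposite order for this pair, with E at 363.9 CPM and M at 216.0 CPM in the Total libraries and 334.5 and 232.3 CPM in the CD45 libraries. The macrophages of E also held the lowest sum of macrophage marker genes, 8739 CPM against 13677 to 16165 CPM in the other Total libraries, and the part of this in the Itgav value was not tested.

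**Figure D3:**
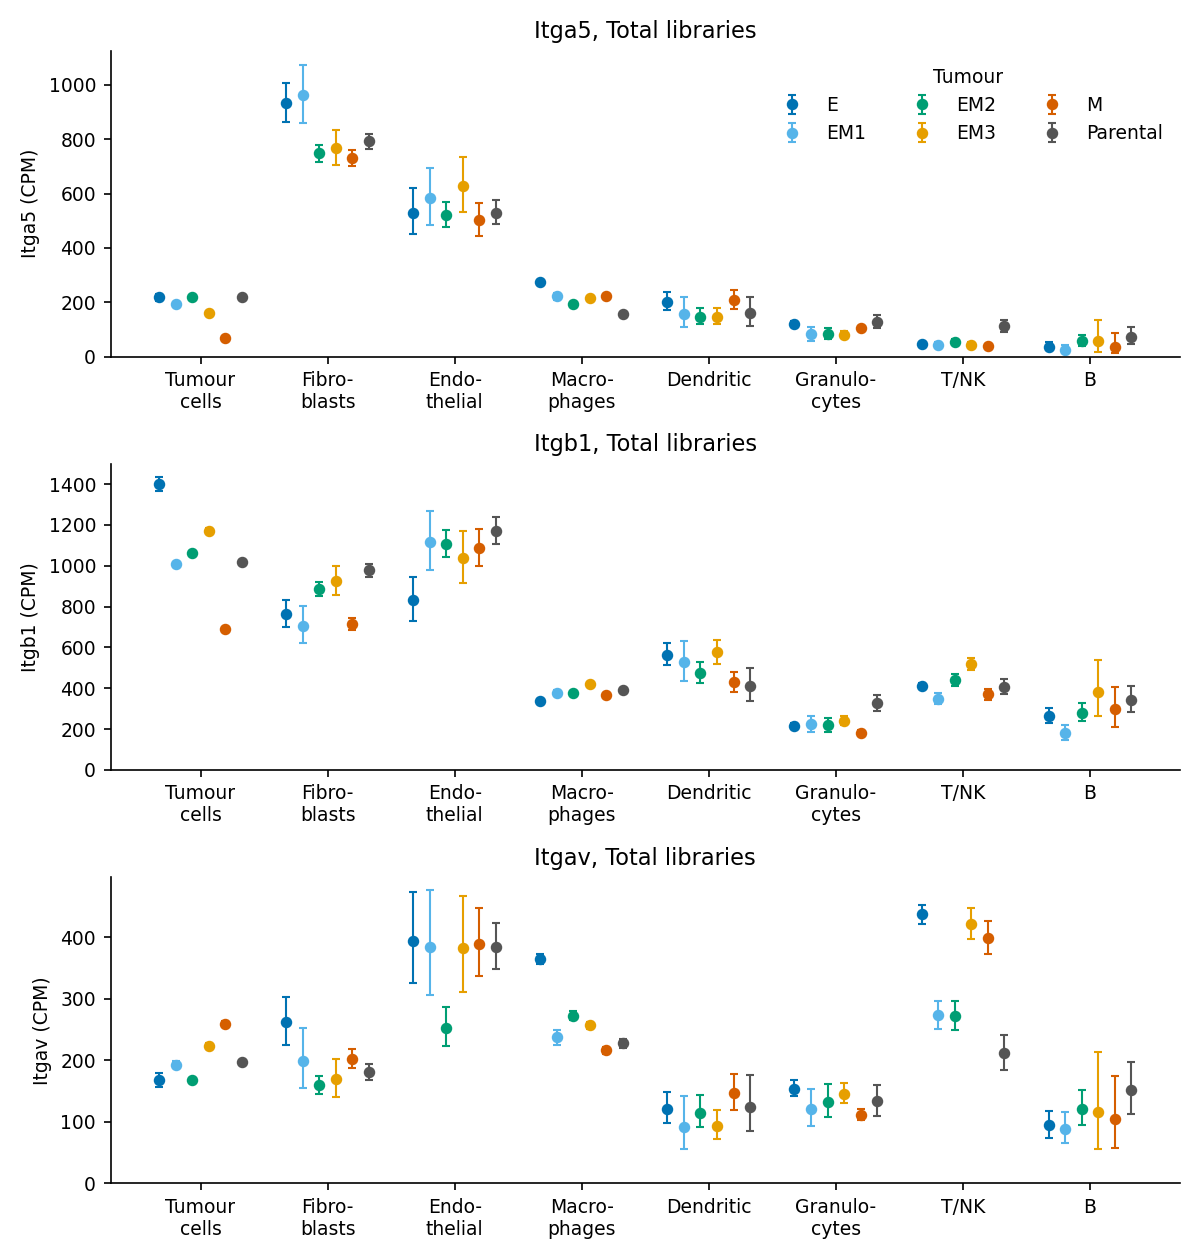
Itga5, Itgb1 and Itgav in CPM (vertical axes, from 0) in 8 classes of the Total libraries (horizontal axes), with 1 point for each tumour and bars for 95% Poisson intervals. Itga5 stands highest in fibroblasts in all 6 tumours, Itgb1 is shared by tumour, endothelial and fibroblast classes, and Itgav in tumour cells runs from 167.6 CPM in E to 259.6 CPM in M.

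Among immune cells, Itgav ranges of T cells and macrophages overlapped. The level in NK cells of the CD45 libraries depended on which of the authors' groupings was used. Their NK class had 373.2 to 545.4 CPM over 37 to 132 cells in a library, above the range of macrophages. Their NK subtype had 121.6 to 334.0 CPM over 62 to 221 cells, overlapping macrophages. Of the 841 cells deposited under that subtype, 510 were in the NK class and 331 in a class named Other Myeloid. T and NK cells of the Total libraries had 211.1 to 437.3 CPM and the highest sum in 3 of 6 tumours, E, EM3 and M. In all 3 their interval overlapped that of endothelial cells, so neither was first. The endothelial sums there rested on 116, 97 and 202 Itgav UMIs. The authors' subtypes of the CD45 libraries divided the T cells further, with at least 30 cells in each sum used. Foxp3+ Cd4+ T cells, which carry the marker of regulatory T cells, had 622.3 to 1036 CPM of Itgav in the 6 tumours. Cd44- Cd4+ T cells had 54.7 to 107.0 CPM, and Cd44+ Cd4+ T cells 193.0 to 390.3 CPM. The ranges of these 3 subtypes did not overlap. Gzmb+ Cd8+ T cells, which express a cytotoxic granule protease, had 279.2 to 697.5 CPM in the 5 tumours with enough cells.

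Itgb1 followed another order over the same T cells. Foxp3+ Cd4+ T cells had 101.7 to 216.7 CPM of Itgb1, below Cd44+ Cd4+ T cells at 401.5 to 637.3 CPM and below Lef1+ Cd8+ T cells at 369.1 to 684.0 CPM. Cd44- Cd4+ T cells ranged from 88.1 to 535.1 CPM, with the highest value in M, which had 41 such cells. The subtypes were drawn by the authors from the same cells, so these differences are descriptions.

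Tnc was highest in the fibroblast class in all 6 tumours. Fibroblasts had 7519 CPM (7434 to 7605) in the parental tumour, 6376 in EM3, 5820 in EM2, 5254 in EM1, 4927 in M and 2050 (1945 to 2159) in E. E was the lowest by a wide margin, M over E being 1.26 on the log2 scale (1.18 to 1.34). The fibroblast class of E also held the lowest sum of fibroblast marker genes, 71408 CPM against 96833 to 158027 CPM, and the highest sum of macrophage marker genes, 1814 CPM against 239.5 to 1508 CPM. The part of these other cells' RNA in the Tnc level of E was not tested. Of thinned fibroblasts, 49.6% (40.5 to 58.8) had a Tnc UMI in E and 62.2% to 80.3% in the other 5 tumours.

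Tumour cells held Tnc at 305.5 CPM (290.4 to 321.1) in E, 71.3 in EM1, 64.1 in the parental tumour, 47.7 in EM2, 40.6 in EM3 and 17.3 (16.3 to 18.3) in M. E stood far above the rest, and M below, a spread of 11.6-fold that 99.2% of genes did not reach. M over E was −3.53 (−3.62 to −3.44) and EM3 over E was −2.64 (−2.74 to −2.54). In tumour cells and in fibroblasts the pair E and M thus had opposite orders. The low values lay near the lymphocyte level: lymphocytes had 103.0 CPM of Tnc in the parental tumour, 48.2 in EM2, 39.4 in E, 29.0 in M, 22.9 in EM3 and 17.2 in EM1. Tumour cells of EM2, M and the parental tumour did not exceed that level in CPM, although per cell they held 10.8, 4.10 and 5.84 times the lymphocyte number of Tnc UMIs, while those of E held 21.4 times. Of thinned tumour cells, 19.6% (16.8 to 22.7) had a Tnc UMI in E and 1.61% (1.26 to 2.02) in M, against 4.36% of T and NK cells in E and 2.85% in M. In M the share and the CPM thus lay under the lymphocyte level and the UMIs per cell above it. Whether the tumour cells of M expressed Tnc was not settled, and the spread and the ratios that use their level carry the same limit.

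Fibroblasts over tumour cells had a median log2 ratio of 6.66 for Tnc, or 101.3-fold, with the smallest ratio, 2.71, in E and the largest, 7.50, in M, where the tumour-cell level lay under the lymphocyte CPM. Fibroblasts held 91.0% of the Tnc UMIs of the Total library in M, 84.3% in EM2, 82.2% in the parental tumour, 73.2% in EM3, 46.8% in EM1 and 35.9% in E, although they were few. Tumour cells held 38.6% in E and 49.6% in EM1. Macrophages had 6.68 to 23.2 CPM of Tnc in the Total libraries, which was 0.23 to 0.53 times the lymphocyte CPM and 1.09 to 1.97 times the lymphocyte UMIs per cell. In the CD45 libraries, Tnc in macrophages was 0.64 CPM or less, with 0 UMIs in EM1.

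**Figure D4:**
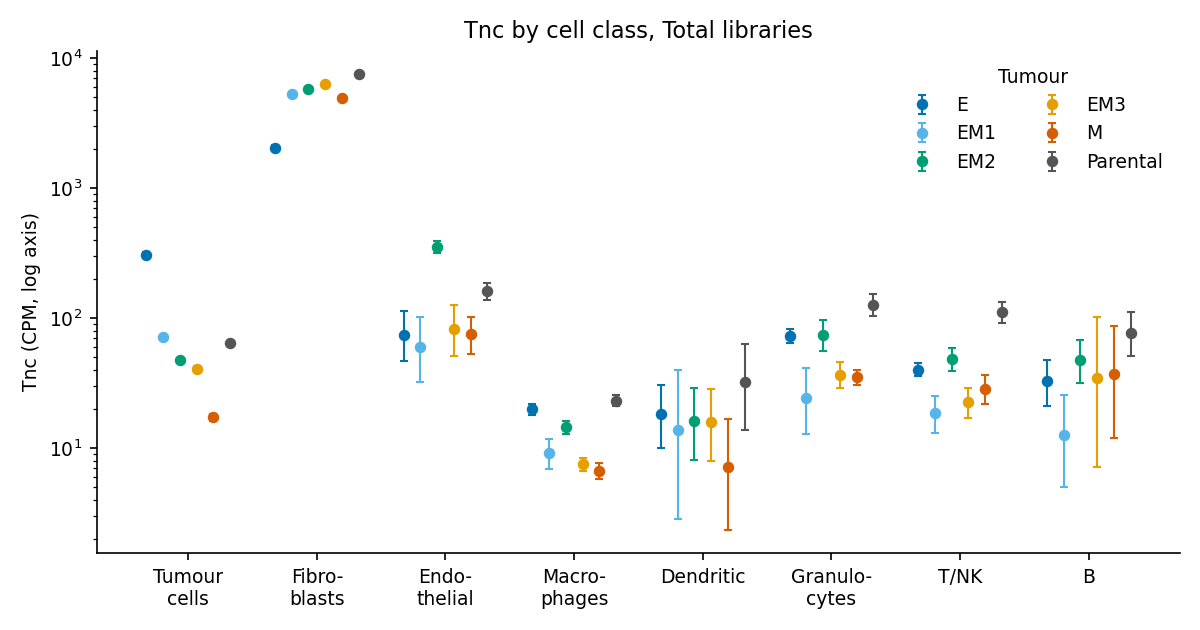
Tnc in CPM on a log axis (vertical) in 8 classes of the Total libraries (horizontal), with 1 point for each tumour and bars for 95% Poisson intervals. Fibroblasts lie at 2050 to 7519 CPM, and tumour cells of E, at 305.5 CPM, lie above those of the other 5 tumours.

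Read together in tumour cells, 4 of the 5 genes spread at least 2-fold over tumours, where 25.1% of all genes with at least 50 CPM in 1 tumour did. The same 4, Fn1, Itga5, Itgb1 and Tnc, were lowest in M, and all 4 were at least 2-fold lower in M than in E, against 8.04% of genes. With size factors over all detected genes, Fn1 (−0.93) and Itgb1 (−0.46) were no longer 2-fold lower, and Itgb1 was also short of it with doublets kept (−0.997). None was 2-fold higher, against 6.64% of genes. The tumour-cell class of E also held the highest sums of 3 immune marker lists. Macrophage genes summed to 307.6 CPM in E and 112.7 CPM in M, granulocyte genes to 1111 and 463.7 CPM, and T and NK genes to 67.9 and 22.1 CPM. Among tumour cells with no UMI of Ptprc, the gene of CD45, M over E was −1.50 for Fn1, −1.54 for Itga5, −1.03 for Itgb1 and −3.58 for Tnc. Since these levels named the genes, nothing is read from those shares. In macrophages 1 of the 4 genes that reached 50 CPM, Fn1, spread 2-fold or more, in the Total (11% of genes) and in the CD45 libraries (10.3%). In fibroblasts 1 of 5, Tnc, did, against 29.8% of genes. The median log2 spread of the 5 genes was 1.56 in tumour cells, 0.75 in Total macrophages and 0.68 in fibroblasts, beside 0.70, 0.46 and 0.75 for all genes.

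**Figure D5:**
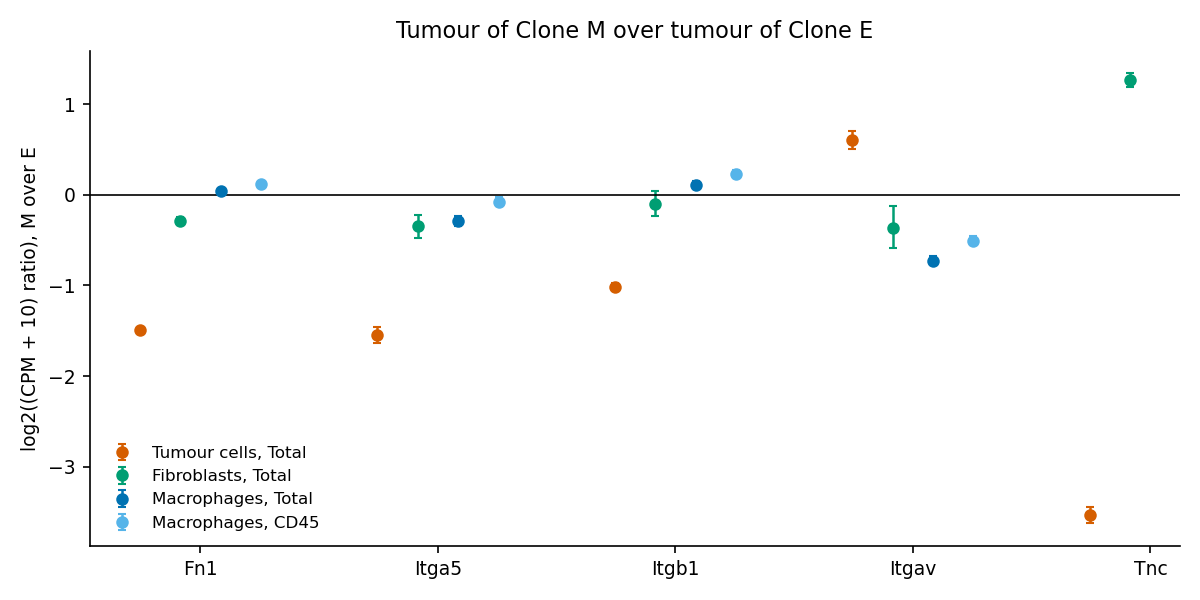
Log2 ratio of CPM + 10 in the tumour of Clone M over that of Clone E (vertical axis) for the 5 genes (horizontal axis) in tumour cells, fibroblasts and macrophages, with bars for limits combined from both Poisson intervals; Tnc in macrophages is left out because it stayed under 50 CPM. In tumour cells Fn1, Itga5, Itgb1 and Tnc lie at −1.01 or below and Itgav at 0.60, while Tnc in fibroblasts lies at 1.26.

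Between classes, 2 of the 5 genes, Itga5 and Tnc, were at least 2-fold higher in fibroblasts than in tumour cells by the median of 6 tumours, where 11.5% of genes were, and none was 2-fold lower (20.5% of genes). The sign of the Fn1 ratio of fibroblasts over tumour cells was not stable, since it became 0.12 with size factors over genes of at least 50 CPM. Itgb1 and Tnc were at least 2-fold lower in macrophages than in tumour cells (27.3% of genes) and none was 2-fold higher (15.1%). For Tnc the call compares low levels, as macrophages held 0.23 to 0.53 times the lymphocyte CPM. Tumour cells of EM2, M and the parental tumour did not exceed the lymphocyte CPM either. In those tumours a difference in Tnc expression between the classes was not settled.

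Across 45 sums of a class in a tumour (at least 50 cells each) and 8767 genes, the genes most like Fn1 by Pearson's r of log2(CPM + 10) were Sept8 (0.87), Timp2, a metalloproteinase inhibitor (0.86), and Epb41l1 (0.86). The sums share libraries and depth, so r is a description. The other 4 genes were less like Fn1, with r of 0.52 for Itgb1, 0.50 for Itga5, 0.46 for Tnc and 0.25 for Itgav. Tnc was most like Adam12 (0.97), Tagln (0.97) and Aebp1 (0.96), and its r with Itga5 was 0.69. Itgb1 was most like Map4 (0.92) and the mechanosensitive channel Piezo1 (0.92), and Itga5 most like Slc39a1 (0.87).

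Besides Itga5, Itgb1 and Itgav, 9 fibronectin receptor genes were listed. Of these, 3 reached 50 CPM in tumour cells, Itgb3, Itgb5 and Sdc4, and all 3 spread at least 2-fold, where 25.1% of all genes did. Itgb5, the β chain of a vitronectin and fibronectin receptor, was 101.5 CPM in EM3 and 281.7 CPM in M, so that Itgav and Itgb5 were both highest in M. Itgb3 ran from 14.4 CPM in EM3 to 67.8 CPM in EM1 and was also under 50 CPM in E, M and the parental tumour. It thus passed the limit through its high values, and nothing is read from the count of these 3 genes. Sdc4, a syndecan that binds the heparin-binding part of fibronectin, was 770.4 CPM in E and 1672 CPM in M, the reverse of Itga5. Itga9, named after its values were seen, is a chain that binds tenascin-C and a fibronectin splice form. It was a macrophage gene, with a median of 202.8 CPM there and 1.89 CPM in tumour cells, and it ran from 123.3 CPM in E to 291.0 CPM in EM1. The sum of macrophage markers was also lowest in macrophages of E (8739 CPM) and highest in those of EM1 (16165 CPM), and its part in the Itga9 range was not tested. Of 3 further tenascin-C receptors, 2 passed and both spread 2-fold (25.1% of all genes), with Itga2 at 70.0 CPM in EM1 and 269.3 CPM in E. The other, Itga7, was under 50 CPM in E, EM1, EM2 and EM3, and nothing is read from this count either.

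Of 16 matrix partners, 8 reached 50 CPM in tumour cells and 6 spread at least 2-fold, against 25.1% of all genes, and their median log2 spread was 1.74 beside 0.70. The 6 include Col1a1 and Col3a1, which are fibroblast markers. Tumour cells of E held them at 105.7 and 63.8 CPM, beside 110.9 and 75.2 CPM in macrophages of E. The part of fibroblast RNA in these spreads was not tested. Col3a1, at 14.2 to 40.4 CPM in tumour cells of the other tumours, passed the limit of 50 CPM through E alone, where it is highest. Nothing is read from the count of partners that spread or from their median spread. Sparc, a collagen-binding matrix protein, was 125.7 CPM in E and 916.7 CPM in EM1. Thbs1, thrombospondin-1, was 154.7 CPM in EM2 and 994.7 CPM in EM1 in tumour cells. It was far higher in macrophages, where it ran from 2710 CPM in EM1 to 6815 CPM in E in the Total libraries. In fibroblasts 13 of the 15 partners that passed in either class were at least 2-fold higher than in tumour cells (11.5% of all genes), while Ltbp1 was lower. As only 8 partners reached 50 CPM in tumour cells, the others passed through fibroblasts alone, where they are high. Col1a1 and Col3a1, with medians of 49437 and 38057 CPM in fibroblasts, also mark that class. Nothing is therefore read from this count.

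Of 15 adaptors that couple integrins to actin, 13 reached 50 CPM in tumour cells and 5 spread at least 2-fold, against 25.1% of all genes. In M over E, 3 of the 13 were at least 2-fold higher (6.64% of genes) and 1, Fermt1, 2-fold lower (8.04%). The 3 were the genes of the complex of Ilk, Lims1 and Parva, which binds β-integrin tails: Ilk ran from 66.1 to 174.6 CPM, Lims1 from 75.9 to 169.9 CPM and Parva from 73.1 to 199.9 CPM, each lowest in E and highest in M. These calls were not recomputed with the size factors, which moved M over E for Fn1, Tnc and the 3 integrin subunits. Another 4 adaptors were highest in E. Fermt1, an epithelial kindlin, ran from 6.35 CPM in EM3 to 141.0 CPM in E. Tln1, the talin that activates integrins, spread 1.34-fold.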

How the data were processed

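The deposited tables hold UMI counts per gene and cell for 12 libraries. Per the submitters' processing notes, Cell Ranger and mm10 were used; versions and cell filters are not given in the sources used here. Per the labels' protocols, cells were fixed with a fixed-RNA kit, and 3′ reagents are also named, so the chemistry is not settled. A second deposited table gives the authors' cell classes and, per the file headers, the mitochondrial percent and fraction per cell, which were not used here. The members and gene lists were chosen with earlier results of these data known.

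Doublets were called with Scrublet (scanpy 1.11.5) and left out (3790 of 115612 cells, 3.28%, at 2.09% to 4.39% per library). Counts were summed over each class in each library and divided by the UMIs of those cells (CPM). Intervals are exact Poisson for CPM and Clopper-Pearson for shares. Ratios are log2 of CPM + 10. Ratio limits combine both Poisson intervals, and the code was tested on simulated data. All-gene shares use genes of at least 50 CPM in 1 of the sums compared. The threshold for a called gene is 2-fold. No gene was tested, as each group is 1 tumour. T, NK and B cells of a library gave its background. From each pathway list, genes spreading 2-fold in tumour cells or among the 3 highest in tumour cells, macrophages or fibroblasts could be named; Itga9 falls outside this rule. Alternatives were: doublets kept, mean CPM of single cells, 2 kinds of size factors, at least 650 genes per cell, cells without Ptprc UMIs and lymphocyte levels subtracted.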

Additional observations from a re-analysis of the deposited data

How the results depend on the processing

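Of 56 recomputed log2 differences between tumours, 23 stayed within their counting limits, 29 moved beyond them with the sign kept or lost to 0, and 4 changed sign. The 16 recomputed medians of class ratios were held to 1 SD over tumours, a far wider limit (0.50 for fibroblasts and 0.79 for macrophages over tumour cells), and 1 changed sign. Keeping doublets moved EM3 over E for Fn1 in tumour cells to −0.14, and cells with no Ptprc UMI moved it to −0.19. The mean CPM of single cells gave −1.36 (Fn1), −1.67 (Itga5) and 0.50 (Itgav) for M over E and −0.0717 for EM3 over E in tumour cells, and 0.22 for Fn1 in CD45 macrophages. Size factors over all detected genes gave, in tumour cells for M over E, −0.93 (Fn1), −1.03 (Itga5), −0.46 (Itgb1), 1.14 (Itgav) and −3.08 (Tnc), and 0.39 for EM3 over E, with 0.0904 and −0.23 for Fn1 in Total and CD45 macrophages. Size factors over genes of at least 50 CPM, chosen after seeing the data, gave −1.61, −1.66, −1.13, 0.49 and −3.62 in the same order, −0.18 for EM3 over E, −0.14 and −0.0699 in macrophages, and 0.12 for fibroblasts over tumour cells. Subtracting lymphocyte CPM gave −1.66, −2.22, −1.61, 0 and −4.79, −0.28 for EM3 over E, and 0.0817 and 0.16 in macrophages. Tnc of M, at 17.3 CPM against 29.0 CPM in lymphocytes, was set to 0 there. The −4.79 therefore depends on the 10 CPM added before the log and is no measured fold. Subtracting lymphocyte UMIs per cell, also chosen after seeing the data, gave 0.11 and 0.14 in macrophages. The minimum of 650 genes per cell moved none of the 10 differences beyond its limits, and macrophages over tumour cells for Fn1 ran from −1.003 to −0.35 over the alternatives. The cause of the reversals was not tested. Between tumours no paired analysis was possible because each group holds 1 tumour. Ratios between classes were taken within a tumour and left untested, since the authors drew the classes from the same cells. Fibroblast values rest on 52 to 258 cells, and those of E on its 747 tumour cells.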

Other observations

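In macrophages, cells with an Fn1 UMI were compared with cells without one after thinning to 1000 UMIs. The share with an Itga5 UMI was lower among the Fn1-positive cells in all 6 Total and all 6 CD45 libraries, with differences of −7.35 to −2.59 and of −5.94 to −2.01 percentage points. It was 14.8% to 22.7% of Fn1-positive and 19.4% to 27.8% of Fn1-negative CD45 macrophages. For Itgb1 and Itgav the sign differed between libraries. In tumour cells the share with an Itgb1 UMI was higher among Fn1-positive cells in 6 of 6 libraries, by 3.80 to 10.5 points, but only 37 to 280 thinned tumour cells in a library had no Fn1 UMI. These differences are small, rest on sparse counts of cells from the same tumours, and were not tested. An Fn1 UMI was also found in 52.8% to 93.0% of thinned T and NK cells of the Total libraries. In T cells of the CD45 libraries it was found in 12.3% to 54.2%. The split therefore does not separate cells that express Fn1 from others.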
